A study of Homo sapiens with 36 samples.

Results

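The 4 inhibitor of DNA binding genes *ID1*, *ID2*, *ID3* and *ID4* and the 3 feedback genes *SMAD6*, *SMAD7* and *BAMBI* were taken by gene symbol from the 61587 genes of the count table, and each was measured in all 36 libraries. The set was chosen by the arsenite response of *ID2*, which was among the largest falls of all genes. The other 6 genes were set beside it with earlier results of these data known. The arsenite values of all 7 genes are therefore given as a description, without a test. All 7 passed the filter on low counts, as did 22486 genes in total. The cells were HEK293T, a human embryonic kidney cell line, and every line was a *TXNL1* knockout (KO). The KO cells had been sorted singly and expanded as clones, and whether the 4 lines came from the same clone is not given in the sources used here. TXNL1 is a thioredoxin-like protein that binds proteasomes. The KO cells received a lentiviral vector with a CMV promoter that was empty (vector) or encoded wild-type (WT) TXNL1, the variant D162R R234D, which was made to lose proteasome binding, or the variant SxxS, which carries changes in the thioredoxin domain. Each of the 4 lines was left untreated (labelled DMSO, a solvent), or was given arsenite (100 µM) or hydrogen peroxide (H2O2, 600 µM) for 6 h. Doses and time were taken from the methods of the study. The 12 groups held 3 replicates each. According to the methods of the study, cultures in multiwell plates were treated in triplicate. Separate passages or days are not stated, so p-values measure the spread between such cultures.

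Bone morphogenetic proteins (BMPs) are secreted ligands that bind type I and type II receptor kinases, which phosphorylate SMAD1, SMAD5 and SMAD9. These join SMAD4 in the nucleus and turn on target genes, of which the *ID* genes are among the best known. ID proteins have a helix-loop-helix but no basic region, so they pair with E proteins such as TCF3, TCF4 and TCF12 and keep them from binding DNA. SMAD6, SMAD7 and BAMBI close a feedback loop. SMAD6 and SMAD7 are inhibitory SMADs that act at the receptors, and BAMBI is a pseudoreceptor without a kinase domain. The *ID* genes also answer to serum and other signals, so they are not read-outs of BMP alone.

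The 7 genes lie on different chromosomes. In GENCODE 44 on GRCh38, *ID1* spans chr20:31605283-31606515 on the plus strand, *ID2* chr2:8678845-8684461 on the plus strand, *ID3* chr1:23557926-23559501 on the minus strand and *ID4* chr6:19837370-19842197 on the plus strand. *SMAD6* spans chr15:66702236-66782849 on the plus strand, *SMAD7* chr18:48919853-48950965 on the minus strand and *BAMBI* chr10:28677510-28682932 on the plus strand. Their canonical transcripts have 2 to 4 exons, against a median of 9 over 14794 tested protein-coding genes. The *ID* genes and *BAMBI* are also compact. The genomic span of the canonical transcript was 1222 bases for *ID1*, 1576 for *ID3*, 2406 for *ID2*, 4828 for *ID4* and 5412 for *BAMBI*, against a median of 28434 bases. *SMAD7*, with a span of 31113 bases, and *SMAD6*, with 80614 bases, were above that median. Of the 2213 exon bases of *ID2*, 145 (6.55%) overlap the antisense gene *ID2-AS1*. The median level of *ID2-AS1* was 0.590 CPM (counts scaled to the size of the library) in untreated, 0.691 in H2O2-treated and 0.493 in arsenite-treated libraries, whereas *ID2* stayed at 13.9 CPM or more in every library.

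The sequences just before the transcription start are shown for *ID1*, *ID3* and *ID4*, because these 3 share a TATAA sequence at almost the same distance from the start. They come from RefSeq (GRCh38.p14), read 5′ to 3′ on the strand of the gene, and leave out bases that GENCODE annotates as exon. Capitals mark TATAA on either strand. Its first base lay 29 bases before the start in *ID3* and *ID4* (position -29), and in *ID1* TATAA and its reverse overlapped at positions -31 and -32.
ID1, chr20:31605127-31605282, plus strand: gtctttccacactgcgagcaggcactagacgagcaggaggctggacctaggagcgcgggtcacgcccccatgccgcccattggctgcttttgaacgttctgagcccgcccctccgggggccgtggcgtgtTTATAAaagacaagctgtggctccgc
ID3, chr1:23559502-23559751, minus strand: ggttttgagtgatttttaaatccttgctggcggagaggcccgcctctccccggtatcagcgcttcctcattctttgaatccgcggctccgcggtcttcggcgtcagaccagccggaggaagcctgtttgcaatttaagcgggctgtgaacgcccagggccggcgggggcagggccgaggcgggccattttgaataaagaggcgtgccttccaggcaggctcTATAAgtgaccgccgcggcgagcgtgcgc
ID4, chr6:19837120-19837369, plus strand: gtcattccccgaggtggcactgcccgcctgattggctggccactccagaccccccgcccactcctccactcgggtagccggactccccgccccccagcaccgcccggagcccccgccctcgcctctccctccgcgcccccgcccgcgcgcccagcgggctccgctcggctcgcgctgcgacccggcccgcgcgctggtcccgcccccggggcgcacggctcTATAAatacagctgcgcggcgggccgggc

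TATAA was found on either strand within 250 bases before the start in 6646 of 35116 RefSeq promoters (18.9%). The window of *ID2* held none, and held CCAAT, a sequence present in 32.0% of promoters, 3 times, at positions -172, -122 and -78. CCAAT also occurred at -84 in *ID1*, at -220 in *ID4* and at -92 in *BAMBI*. Outside the *ID* genes, TATAA occurred at -35 in 1 window of *SMAD7*. The *ID2* window lies mostly within exons of other annotated transcripts and is not shown. The promoters of *SMAD6* and *BAMBI* are shown because they hold sequences that SMAD proteins are known to bind. Capitals mark GTCTAGAC, a pair of GTCT sequences on opposite strands, in *SMAD6*, and GGCGCC in *BAMBI*.
SMAD6, chr15:66701986-66702235, plus strand: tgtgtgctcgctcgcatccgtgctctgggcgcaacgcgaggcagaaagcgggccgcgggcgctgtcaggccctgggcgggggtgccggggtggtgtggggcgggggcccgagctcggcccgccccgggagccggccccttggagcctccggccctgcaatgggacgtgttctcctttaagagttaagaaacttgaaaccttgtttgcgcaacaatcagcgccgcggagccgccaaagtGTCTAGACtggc
BAMBI, chr10:28677271-28677509, plus strand: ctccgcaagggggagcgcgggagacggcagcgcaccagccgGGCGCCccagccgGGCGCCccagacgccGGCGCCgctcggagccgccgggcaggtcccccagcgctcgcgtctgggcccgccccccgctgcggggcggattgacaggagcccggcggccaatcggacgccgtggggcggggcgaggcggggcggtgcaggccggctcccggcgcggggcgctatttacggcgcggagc

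GTCTAGAC began at position -12 in *SMAD6* and occurred in 64 promoters (0.182%). GGCGCC began at positions -209, -196 and -181 in *BAMBI* and was common, occurring in 5752 promoters (16.4%). A single GTCT occurred in 77.5% of promoters and in every window of these genes, the *ID* genes included. The *ID* windows held neither GTCTAGAC nor GGCGCC. *SMAD7* has 3 RefSeq starts, and none of the 3 windows held GTCTAGAC or GGCGCC. These matches describe the letters of the windows and do not show binding in these cells.

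Libraries held 42072410 to 174119002 counts (median 66016833). WT arsenite replicate 1 and WT H2O2 replicate 2 stood apart. Their log2 CPM differed from the group median with an SD of 0.502 and 0.571 over 15674 genes, against 0.0687 to 0.174 in the other 34 libraries, so results that rest on them are given with and without them. *TXNL1* itself was at 30.6 ± 1.77 CPM in the untreated vector line, 54.4 ± 3.15 in the WT line, 53.4 ± 1.65 in SxxS and 62.9 ± 3.50 in D162R R234D (mean ± SD, n = 3). Reads in the KO line do not by themselves test the knockout, since no unedited cells were among these libraries. Of 6 markers of HEK293 cells, *IGF2BP1*, *LIN28B* and *INA* were well detected, at 14.2 CPM or more for *INA* in all but 1 library (12.1), while *PAX2*, *LHX1* and *NEFM* stayed at 2.42 CPM or less. *LIN28B* was at 144 to 196 CPM in untreated libraries, at 103 to 125 CPM with arsenite outside the outlying library (54.9), and at 74.6 CPM in the outlying H2O2 library. Its part in the results was not tested. The blood marker *PTPRC*, the hepatocyte marker *ALB* and the endothelial markers *CDH5* and *PECAM1* were at or near 0, and *COL1A1*, a fibroblast gene, was between 10.8 and 22.3 CPM.

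With arsenite, the level of every one of the 7 genes was lower in all 12 treated libraries than in any of the 12 untreated libraries. Over the 22486 genes tested, 16.6% separated in this way and direction. *ID2*, which opposes E proteins in many progenitor cells, had the largest difference. In untreated cells it was at 150, 144 and 146 CPM in the vector line, 135, 141 and 133 in WT, 162.1, 156 and 165 in D162R R234D and 143, 140 and 151 in SxxS. With arsenite it was at 17.6, 15.9 and 15.2 CPM in the vector line, 16.6, 15.3 and 14.7 in WT, 19.6, 15.5 and 15.0 in D162R R234D and 16.3, 15.6 and 13.9 in SxxS. The highest treated library was thus far below the lowest untreated one. Averaged over the lines, the log2 fold change was -3.21 ± 0.040 (SE), so that 10.8% of the untreated level remained. Among 15602 genes with a mean of at least 100 counts, this was the largest fall, ahead of *GAS1* (-3.09), *MFSD5* (-3.06) and *MED9* (-2.96).

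*ID4*, the longest *ID* transcript, was at 35.9 to 45.3 CPM (median 41.1) in the 12 untreated libraries and at 8.88 to 11.6 (median 10.2) with arsenite. Its log2 fold change of -2.01 ± 0.033 left 24.8% of the untreated level. *ID1* was at 12.02 to 18.6 CPM (median 15.6) in untreated cells and at 4.52 to 11.01 (median 6.19) with arsenite, a log2 fold change of -1.25 ± 0.10. The highest of these treated values, 11.01 CPM, came from the outlying WT replicate 1, while the other 2 WT libraries were at 5.63 and 5.12. In the WT line alone, the log2 fold change of *ID1* was -0.82 with that library and -1.28 without it. *ID3*, the most abundant *ID* transcript per length, was at 151 to 195 CPM (median 165) in untreated cells and at 78.5 to 133 (median 86.1) with arsenite. Its log2 fold change was -0.92 ± 0.064, so that 53.0% remained, and again the highest treated value came from WT replicate 1. The 4 *ID* genes were thus separated by treatment without overlap but kept very different fractions of their levels.

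The 3 feedback genes covered a similar range. *BAMBI*, the pseudoreceptor, was at 23.3 to 30.6 CPM (median 26.2) in untreated libraries and at 5.42 to 9.22 (median 7.21) with arsenite, a log2 fold change of -1.85 ± 0.061. *SMAD6*, the inhibitory SMAD that acts mainly on the BMP branch, was at 13.3 to 20.8 CPM (median 17.6) without and at 6.17 to 8.43 (median 7.30) with arsenite. Its log2 fold change was -1.22 ± 0.050. *SMAD7*, which acts on both the BMP and the TGF-β branch, was at 21.4 to 26.9 CPM (median 24.8) without and at 16.6 to 20.6 (median 18.4) with arsenite. Its log2 fold change of -0.41 ± 0.037 was the smallest of the 7 and left 75.3% of the untreated level. These are bulk libraries scaled to their own totals, in which fewer cells with a transcript and less transcript per cell cannot be told apart.

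**Figure D1:**
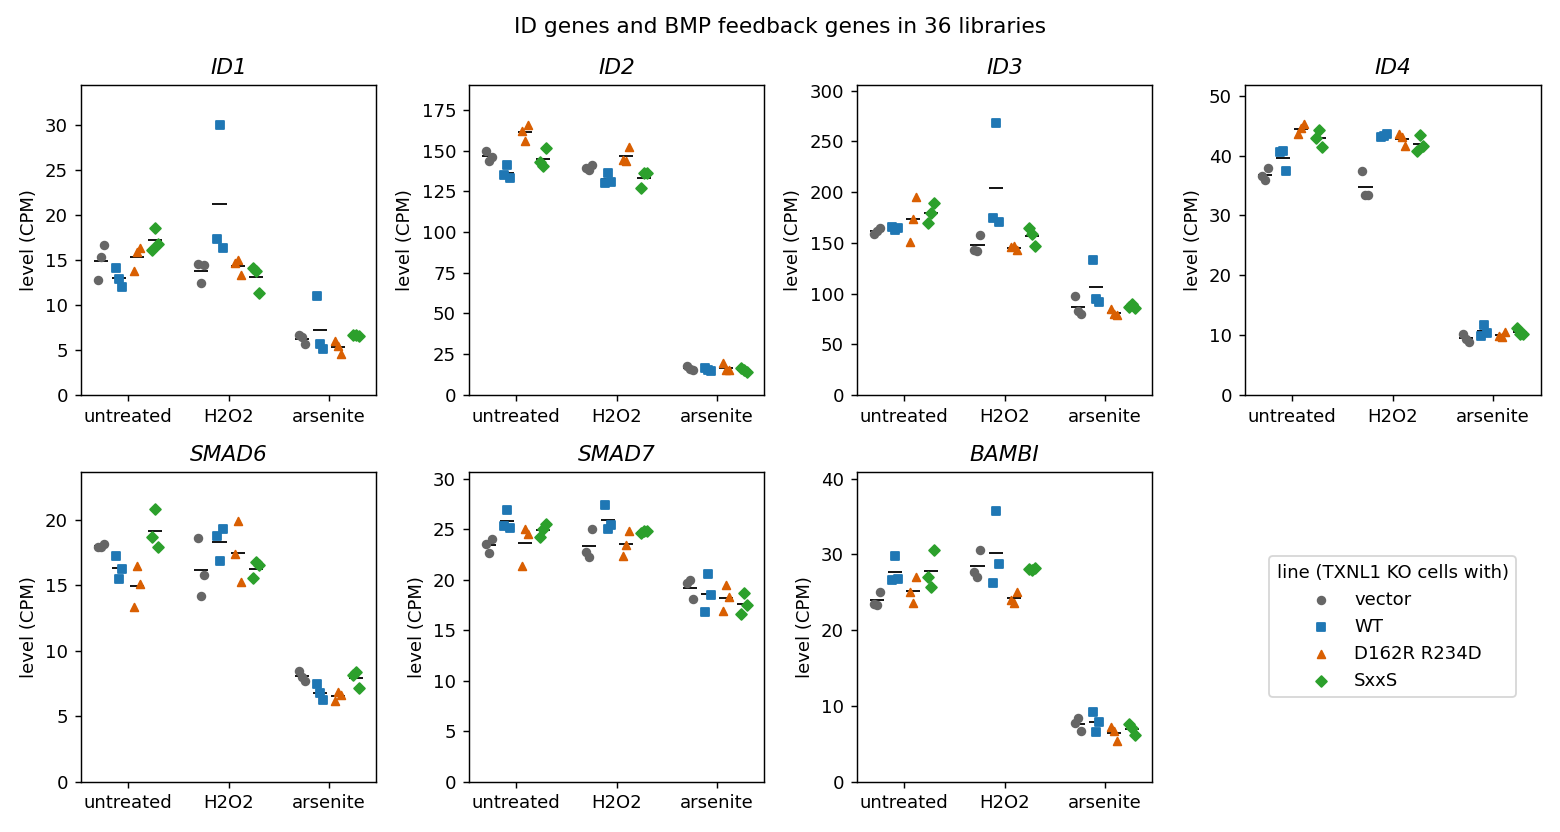
Level of each of the 7 genes in CPM (linear axes from 0) in untreated, H2O2-treated and arsenite-treated cells. Each point is 1 of 36 libraries, colour and shape give the line, and short black bars are the means of 3 replicates. Arsenite-treated libraries lie below all untreated libraries for every gene, for *ID2* between 13.9 and 19.6 against 133 to 165 CPM.

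From the largest to the smallest log2 fold change with arsenite, the order was *ID2*, *ID4*, *BAMBI*, *ID1*, *SMAD6*, *ID3* and *SMAD7*. Over the 4 lines the values ran from -3.27 to -3.13 for *ID2*, which overlapped with no other gene. Those of *ID4* (-2.15 to -1.90) and *BAMBI* (-1.99 to -1.65) overlapped. Those of *ID1* (-1.54 to -0.82) spanned those of *SMAD6* (-1.28 to -1.17) and overlapped those of *ID3* (-1.10 to -0.63). *SMAD7* (-0.50 to -0.29) stood alone at the other end. Without both outlying WT libraries, *ID1* (-1.56 to -1.28) overlapped *SMAD6* (-1.37 to -1.19) without spanning it and no longer overlapped *ID3* (-1.11 to -0.85). The median log2 fold change of the 7 was -1.25, beside 0.06 over all genes tested. Since the 7 were chosen with earlier results of these data known, this difference is a description and not a test.

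**Figure D2:**
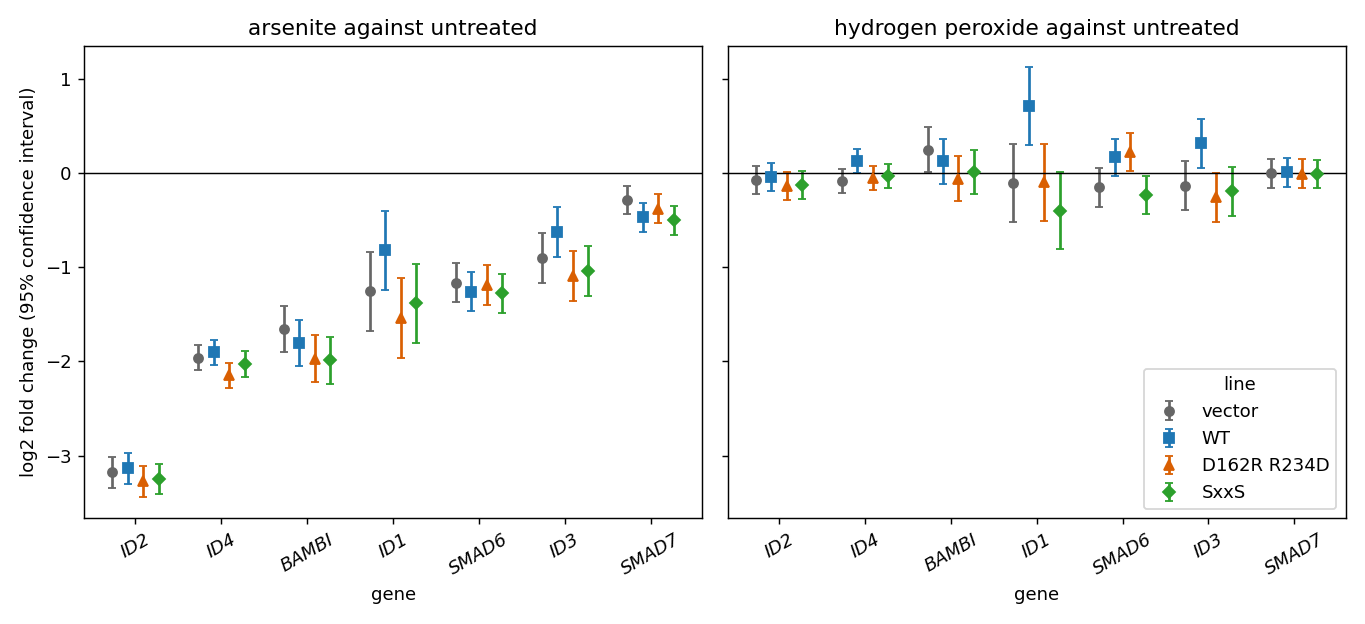
Log2 fold change of the 7 genes against untreated cells (vertical axis) in each of the 4 lines, with arsenite on the left and H2O2 on the right. Points are the fitted values from 3 against 3 libraries and bars are 95% confidence intervals. Genes are ordered by the averaged arsenite value, from *ID2* at -3.21 to *SMAD7* at -0.41, and the H2O2 values of most genes lie around 0.

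To compare the *ID* transcripts with each other, levels were divided by the length that the count table gives for each gene. In untreated libraries the 4 together came to 190 to 230 CPM per kb (median 198). *ID3* made up 51.4 to 58.0% of this sum (median 56.1%) and *ID2* 30.2 to 37.2% (median 32.7%). *ID1* and *ID4* had median shares of 6.002% and 5.26%. With arsenite the sum was 65.7 to 108 CPM per kb (median 73.3). The share of *ID3* was then 77.7 to 82.4% (median 79.9%) and that of *ID2* 6.94 to 12.2% (median 9.89%), both without overlap with untreated libraries. The share of *ID4* was also lower in every arsenite library (2.36 to 4.14%, against 4.76 to 5.72% untreated). The share of *ID1* (5.56 to 8.28%, median 6.75%) overlapped its untreated range of 5.15 to 7.18%. Hence *ID3* was the leading *ID* transcript in all conditions, and the *ID2* share was below that of *ID3* throughout. With H2O2 the median shares were 55.1% for *ID3*, 33.99% for *ID2*, 6.30% for *ID1* and 5.63% for *ID4*, of a median sum of 188 CPM per kb.

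**Figure D3:**
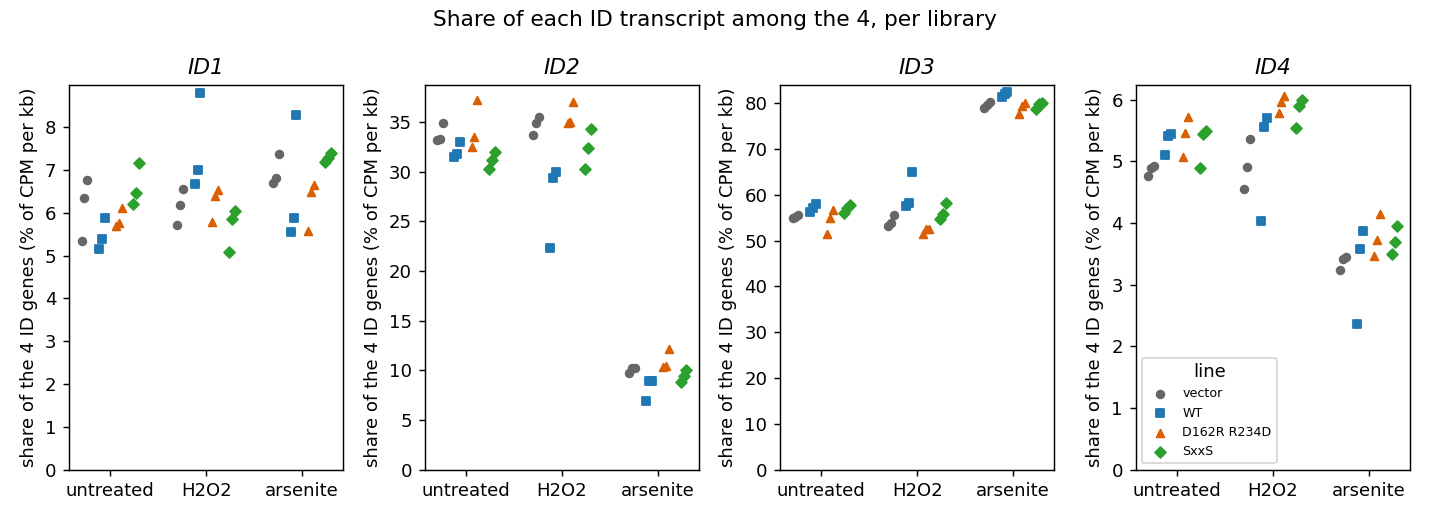
Share of each *ID* transcript (vertical axis, percent of the summed CPM per kb of the 4 genes, from 0) in untreated, H2O2-treated and arsenite-treated libraries. Each point is 1 library and colour gives the line. The median *ID2* share is 32.7% in untreated libraries and 9.89% in arsenite-treated libraries, while that of *ID3* is 56.1% and 79.9%.

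The next question was whether the TXNL1 variant changed the arsenite response. A quasi-likelihood F test in edgeR of the line by arsenite interaction called 0 of the 7 genes, with 0 at an unadjusted p under 0.05 and 0 called by DESeq2's likelihood ratio test. Of all genes tested, 0% were called at the adjusted threshold and 6.37% had an unadjusted p under 0.05. The smallest unadjusted p among the 7 was 0.063 for *ID3* (Benjamini-Hochberg adjusted p = 0.793 over all genes). For *ID2* the adjusted p was 0.894, and its log2 fold changes were -3.18 ± 0.079 in the vector and -3.13 ± 0.079 in the WT line, and -3.27 ± 0.080 and -3.25 ± 0.080 with D162R R234D and SxxS. Their 95% confidence intervals all lay between -3.44 and -2.97. A difference between lines in the arsenite response was therefore not detected with 3 replicates, which does not show that the responses are equal.

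H2O2 gave another picture. Its treated libraries took no part in the choice of *ID2*, and the 7 genes were tested, with limits. These values share the untreated libraries with those for arsenite, by which *ID2* was chosen. Untreated *ID2* levels that were high by chance would therefore lower its H2O2 value as well. The other genes were chosen with earlier results of these data known, and whether these included H2O2 results is not stated. The H2O2 p-values here and below are thus not those of genes chosen independently of the data. Averaged over the lines, edgeR's quasi-likelihood test called 0 of 7 genes after Benjamini-Hochberg adjustment, with 1 (*ID2*) at an unadjusted p under 0.05 and 0 called by DESeq2. Of all genes tested, 12.1% were called by edgeR and 24% had an unadjusted p under 0.05. *ID2* was at 127 to 152 CPM (median 137) with H2O2, which overlapped its untreated range, and its log2 fold change was -0.09 (95% confidence interval -0.17 to -0.02, adjusted p = 0.101 from edgeR). Its untreated level was thus largely kept. *ID4* was at 33.4 to 43.7 CPM (median 42.3), with a log2 fold change of -0.01 (interval -0.07 to 0.05). *ID3* was at 142 to 268 CPM (median 152), with -0.07 (interval -0.20 to 0.06), and *ID1* at 11.3 to 30.02 CPM (median 14.5), with 0.03 (interval -0.18 to 0.23). The upper ends of both ranges were the outlying WT replicate 2, and without both outlying WT libraries the value of *ID1* was -0.06.

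Of the feedback genes, *SMAD7* had a log2 fold change of -0.003 with H2O2 (interval -0.08 to 0.07) and *SMAD6* one of 0.001 (interval -0.10 to 0.10). *BAMBI* was at 23.6 to 35.7 CPM (median 27.8), with 0.08 (interval -0.04 to 0.20). Its highest value was again WT replicate 2, and its log2 fold change was 0.04 without both outlying libraries. For all 7, the treated and untreated ranges overlapped, as for nearly all genes. Over all genes tested, 0.6% were lower and 0.551% higher without overlap. Without both outlying WT libraries, when 6430 genes were called in place of 2716, 2 of the 7 passed in edgeR's test. These were *ID2* (-0.10, adjusted p = 0.00743) and *ID3* (-0.13, adjusted p = 0.00289). In an edgeR fit restricted to the untreated and H2O2 libraries, *ID2* alone passed (-0.10, adjusted p = 0.0115). That fit called 1436 genes higher and 1202 lower.

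Within single lines, *ID1* in the WT line was the one call with H2O2, where 8.06% of genes were called. Untreated WT libraries were at 14.05, 12.9 and 12.02 CPM and treated ones at 17.3, 30.02 and 16.3, of which the highest was the outlying replicate 2. The log2 fold change was 0.71 (SE 0.20, adjusted p = 0.0267 from edgeR). Without that library it was 0.37 and not called (adjusted p = 0.357). The call was also lost without untreated WT replicate 1 (adjusted p = 0.0517), 2 (0.0892) or 3 (0.0947). In contrast, a fit lacking WT H2O2 replicate 2 and WT arsenite replicate 1 together gave 0.37 for *ID1*. There *ID1* was called (adjusted p = 0.024 from edgeR), and 2020 genes were called over all in place of 1813. The call of *ID1* thus depended on the fit and not on the outlying H2O2 library alone. *ID3* in WT was at 175, 268 and 170 CPM with H2O2 (0.32, adjusted p = 0.117), and was called when WT H2O2 replicate 1 (0.42, adjusted p = 0.0347) or 3 (0.43, adjusted p = 0.0283) was left out. Without the outlying replicate 2 it was 0.07 (adjusted p = 0.862).

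In the other lines edgeR's test called 0 of 7 with H2O2, beside 1.35% of genes in the vector, 1.03% in the D162R R234D and 1.02% in the SxxS line. DESeq2 called 0 in these lines. In each of the 3 lines 1 gene had an unadjusted p under 0.05 in edgeR, beside 11.3%, 10.7% and 9.82% of all genes in that order. These were *BAMBI* in the vector line (0.25, adjusted p = 0.407 from edgeR), *SMAD6* in D162R R234D (0.23, adjusted p = 0.379) and *SMAD6* in SxxS (-0.23, adjusted p = 0.375). Without both outlying WT libraries, edgeR called *ID3* in D162R R234D (-0.26, adjusted p = 0.00978) and *ID1* in SxxS (-0.40, adjusted p = 0.00592). Over all genes, that fit called 2328 in place of 231 in D162R R234D and 1475 in place of 229 in SxxS. With only the groups compared, edgeR called *ID3* and *BAMBI* in the vector line and *ID1*, *ID3* and *SMAD6* in SxxS. The share of all genes called in those fits is not given here. The interaction of line and H2O2 was called for 0 of 7 by edgeR and by DESeq2, beside 0.685% of all genes. Here 3 genes had an unadjusted p under 0.05 in edgeR, beside 8.76% of all genes. They were *ID1* (adjusted p = 0.200), *SMAD6* (0.219) and *ID3* (0.363). Without both outlying WT libraries the interaction passed in edgeR for *ID1* (adjusted p = 0.00934) and *SMAD6* (0.0298). It was then called for 340 of all genes in place of 154. The corresponding *SMAD6* levels, in CPM, had means of 18.002 untreated and 16.2 treated in the vector line and of 16.3 and 18.3 in WT. They were 15.0 and 17.5 in D162R R234D and 19.1 and 16.3 in SxxS. For *ID1* the means were 14.9 and 13.8 in the vector line, 15.3 and 14.3 in D162R R234D and 17.2 and 13.1 in SxxS. In WT, *ID1* had means of 13.0 untreated and, without the outlying replicate 2, 16.8 treated.

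In untreated cells, the lines that expressed TXNL1 were compared with the vector line to ask whether the protein or its variants changed these genes. EdgeR's test called 0 of 7 in each comparison, beside 0.196% of genes for WT, 0.0267% for the D162R R234D and 0.0178% for the SxxS line. At an unadjusted p under 0.05 in edgeR there were 0 genes for WT, 1 for SxxS and 2 for D162R R234D. The shares over all genes were 7%, 3.31% and 3.12% in that order. DESeq2 called 0 for WT, 0 for SxxS and 1 for D162R R234D. *ID4* was nearest to a call. In WT it was at 40.5, 40.8 and 37.5 CPM, which overlapped the vector line (log2 difference 0.10, interval -0.02 to 0.23). It was at 36.6, 35.9 and 37.97 CPM in the vector line, 43.6, 44.6 and 45.3 in D162R R234D and 43.0, 44.3 and 41.5 in SxxS. Both variant lines thus lay above the vector line, as did 5.49% of all genes for D162R R234D and 8.21% for SxxS. The log2 differences were 0.27 (interval 0.14 to 0.40, adjusted p = 0.365 from edgeR) and 0.22 (interval 0.09 to 0.35, adjusted p = 0.618). For D162R R234D, DESeq2 called *ID4* (adjusted p = 0.00942), as did edgeR without both outlying WT libraries (adjusted p = 0.0217). That edgeR fit called 17 of all genes in place of 6. The other gene at an unadjusted p under 0.05 was *SMAD6* in D162R R234D, with 13.3, 16.5 and 15.1 CPM against 17.9, 17.9 and 18.1 (-0.27, interval -0.47 to -0.07). *ID2* differed from the vector line by -0.10 in WT (interval -0.25 to 0.05), 0.14 in D162R R234D (interval -0.01 to 0.29) and -0.02 in SxxS (interval -0.16 to 0.13).

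The rest of the BMP pathway was read from a list of 59 genes, of which 55 passed the filter. The list was written with earlier results of these data known. With arsenite, edgeR's test called 10 higher and 28 lower after Benjamini-Hochberg adjustment, against 37.4% higher and 31.5% lower over all genes tested, and 17 were not called. The median log2 fold change of the list was -0.12, beside 0.06 over all genes. Among 10 tested ligands 6 fell and 2 rose, *BMP5* rising from a low level of 0.221 to 0.395 CPM (0.88 ± 0.19). Among 9 tested receptors and co-receptors 6 fell and 1 rose. The co-receptor *RGMA*, which presents BMPs to their receptors, fell from 9.14 to 2.36 CPM (-1.95 ± 0.053). Of the SMADs that carry the signal, *SMAD1* rose from 27.5 to 41.6 CPM (0.59 ± 0.059). *SMAD5*, named after its value was seen, fell from 125 to 62.2 CPM (-1.01 ± 0.097), and *SMAD9* and *SMAD4* were not called.

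Among 11 tested extracellular antagonists, which bind BMPs outside the cell, 4 fell, 2 rose and 5 were not called. Over all genes tested, 31.5% were called lower and 37.4% higher, and the counts by role are a description. *NOG*, which encodes noggin, had the largest fall of the list (-3.49 ± 0.32), but from few counts, since its mean fell to 0.0386 CPM from 0.487 CPM without arsenite. *SOSTDC1* fell from 2.49 to 0.540 CPM (-2.26 ± 0.10). In the other direction, *BMPER* rose from 2.52 to 5.23 CPM (1.06 ± 0.099) and *CHRD*, which encodes chordin, from 0.712 to 0.957 CPM (0.46 ± 0.14). Of 8 intracellular inhibitors of the pathway other than *SMAD6* and *SMAD7*, 4 fell and 2 rose. Of 5 other target genes 2 fell and 1 rose, and *DLX5*, a homeobox gene, fell from 13.3 to 3.97 CPM (-1.74 ± 0.045). In the TGF-β branch 3 of 5 fell, among them the type II receptor *TGFBR2*, from 15.0 to 4.46 CPM (-1.75 ± 0.081), whereas the target *PMEPA1* rose from 8.30 to 11.1 CPM (0.42 ± 0.060). The E protein genes, whose products ID proteins bind, moved little. *TCF3* fell from 214 to 185 CPM (-0.21 ± 0.027) and *TCF4* from 35.9 to 33.1 CPM (-0.12 ± 0.035), and *TCF12* was at 34.8 and 38.4 CPM (0.13 ± 0.11, not called).

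With H2O2, 11 of the 55 genes were called higher and 2 lower, against 6.78% higher and 5.3% lower over all genes tested, and the median log2 fold change was 0.04. The ligands accounted for 5 of the 11. The largest rises were those of the ligand *BMP2* (0.51 ± 0.11), from 1.02 to 1.43 CPM, *BMPER* (0.49 ± 0.10), the ligand *GDF7* (0.44 ± 0.065), the antagonist *FSTL3* (0.40 ± 0.089) and the type I receptor *BMPR1B* (0.38 ± 0.068). The 2 falls were *ACVR2A*, a type II receptor (-0.14 ± 0.033), and *HEY1*, a target gene (-0.08 ± 0.025). None of *TCF3*, *TCF4* and *TCF12* was called (-0.004, 0.06 and 0.09). Between 3.24 and 8.39% of the exon bases of *RGMA*, *CHRD*, *SOSTDC1*, *SMAD1*, *PMEPA1*, *SMAD5*, *GDF7* and *ACVR2A* overlap other genes, so their counts are less certain. Without both outlying WT libraries, 24 of the 55 were called in place of 13, when 6430 of all genes were called in place of 2716.

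**Figure D4:**
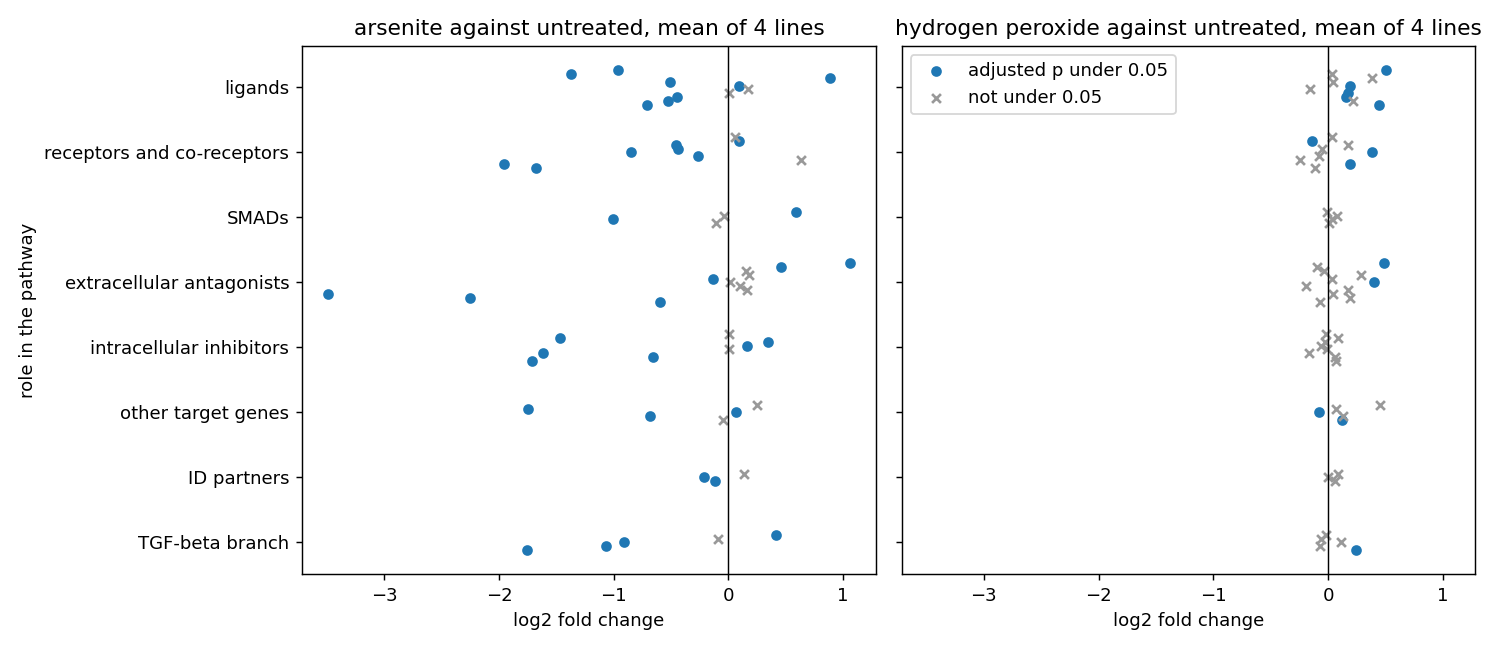
Log2 fold change (horizontal axis) of the 55 tested BMP pathway genes, averaged over the 4 lines, with arsenite on the left and H2O2 on the right, in rows by role. Filled circles have an adjusted p under 0.05 in edgeR's test and crosses do not. With arsenite 28 genes lie to the left and 10 to the right among the circles, and with H2O2 2 and 11.

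Genes whose pattern over the 12 groups was most like that of *ID2* were found by the root mean square difference of centred log2 (CPM + 0.5) group means, over 15673 genes with a mean of at least 1 CPM. The nearest were *MFSD5*, a membrane transporter gene of the major facilitator family (0.166), *GAS1*, which encodes a GPI-anchored protein of the cell surface (0.175), *MYC*, a transcription factor gene (0.186), *MED9*, a Mediator subunit gene (0.196), and *HPS6*, a subunit gene of a complex in lysosome-related organelle formation (0.290). *MYC* was the most abundant of the 5, with a mean of 187 CPM in untreated, 201 in H2O2-treated and 27.6 in arsenite-treated cells. *GAS1* was at 15.9, 17.5 and 1.87 CPM in the same order. Of the other *ID* and feedback genes, *ID4* ranked 62, *BAMBI* 110, *ID1* 548, *SMAD6* 594, *ID3* 1163 and *SMAD7* 3416 by this distance. Their order is that of their arsenite log2 fold changes, and *GAS1*, *MFSD5* and *MED9* had the largest arsenite falls after *ID2*. The distance therefore largely restates the size of the fall that chose *ID2*. The groups fall into arsenite and other clusters, so no correlation is given.

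**Figure D5:**
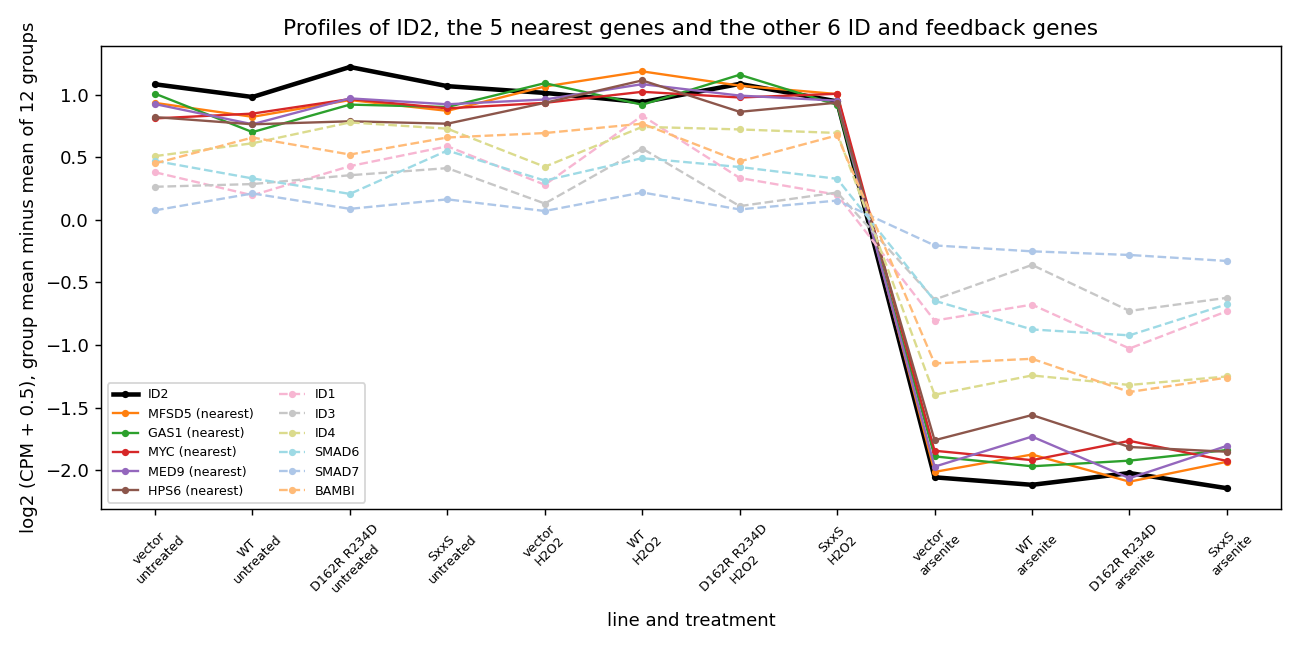
Centred log2 (CPM + 0.5) of group means (vertical axis) over the 12 combinations of line and treatment, for *ID2* (thick black), its 5 nearest genes (solid) and the other 6 *ID* and feedback genes (dashed). *ID2* lies between 0.94 and 1.22 in the 8 groups without arsenite and between -2.14 and -2.02 in the 4 with it.

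The transcripts were also compared for ATTTA, a sequence known from many short-lived messenger RNAs, in the 3′ untranslated region of the canonical transcript. At least 1 ATTTA occurred in all 7 genes and in 71.4% of 14660 protein-coding genes. Per kb of this region, *BAMBI* held 9.42 and *SMAD6* 4.57, at percentiles 98.7 and 88.9 of those genes. *ID2* held 3.83, at percentile 83.0, and *ID1* 2.40, at 63.5. *ID4* (2.00), *SMAD7* (1.98) and *ID3* (1.94) lay between percentiles 55.4 and 56.3, against a median of 1.63 over all genes. The longer TTATTTATT was in none of the 7 and in 9.24% of genes. By arsenite value the order was *ID2*, *ID4*, *BAMBI*, *ID1*, *SMAD6*, *ID3* and *SMAD7*, and its relation to these densities was not tested. This is a description of 7 sequences, and the stability of no transcript was measured here.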

How the data were processed

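Messenger RNA was sequenced from 36 libraries (labels: strand-specific, paired-end 100-base DNBseq). According to the methods of the study, the authors aligned reads to GRCh38 with qAlign of QuasR. They deposited raw read counts per gene, without normalization or pooling. The annotation release, strand setting and counting of mates are not given in the sources used here. GRCh38 and DESeq2 are named in the submitters' processing notes. Symbols and positions were taken from GENCODE 44 on GRCh38, which held 61369 of 61587 identifiers.

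Genes whose counts summed to 10 or more across the untreated vector line were tested with edgeR 4.0.16 in R 4.3.3 (limma 3.58.1), with TMM scaling, one mean per group, robust quasi-likelihood dispersions (biological coefficient of variation 12.4%), all libraries in one fit, and Benjamini-Hochberg adjustment over all genes tested. The call was made at an adjusted p under 0.05. CPM use TMM-scaled library sizes. Pathway genes were named by the 5 largest called rises and falls with each oxidant, and the 5 genes nearest to *ID2* by their pattern. The 7 genes and all lists were chosen with earlier results of these data known. The code was tested on simulated data, and 0 columns were left unmatched. No pair of replicates agreed within counting error (chi-square per degree of freedom 3.31 to 343). Alternatives were other scalings and filters, DESeq2 1.42.0, a replicate block (same-numbered libraries deviated together for D162R R234D with H2O2, r of 0.153 to 0.362), only the groups compared, each library left out, both outlying libraries left out and, added after seeing the data, halved counts, since both mates may have been counted. Promoters are from RefSeq (GRCh38.p14), motifs were sought on both strands, and protein sequences were not used here.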

Additional observations from a re-analysis of the deposited data

How the results depend on the processing

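The fits of the 7 genes were repeated under each alternative. The 651 arsenite values, which are not tested, all kept their sign. Of 1428 other values, 1404 kept their direction and their side of the threshold, 18 passed it newly and 6 lost it, and 0 called values changed sign. With H2O2, calls moved. Without both outlying WT libraries, 2 of the 7 were called averaged over the lines (main 0) and 1 in WT (*ID1*, main 1). D162R R234D gave 1, SxxS 1 and the interaction with the line 2, and 24 pathway genes were called (main 13). More genes were called over all in that fit, 2328 in place of 231 in D162R R234D and 1475 in place of 229 in SxxS. With only the groups compared, 1 of the 7 was called averaged, 2 in the vector line, 3 in SxxS and 0 in WT. WT, with 1 call in the main fit, also gave 0 without a filter. Leaving out 1 library in turn gave 0 to 2 for WT with H2O2. In untreated cells, D162R R234D against vector gave 1 call with DESeq2 and 1 without both outlying libraries (*ID4*), and SxxS against vector gave 2 with only the groups compared (*ID3*, *ID4*). The cause was not tested.

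Replicate numbers are shared by the groups, and same-numbered libraries deviated together in 1 of 11 comparisons, D162R R234D with H2O2 (r of 0.153 to 0.362, every pair above 0.1). In the other 10 at least 1 pair was lower (r from -0.372 to 0.416 over all). A replicate block left 0 of the 7 called with H2O2 in D162R R234D and averaged over the lines, and 38 pathway genes with arsenite and 14 with H2O2. It changed no call of the 7. Scaling moved the median of all genes by less than 0.1 on the log2 scale. Genes such as *NOG*, with 0 to 85 counts per library, have imprecise fold changes.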
